A study of Mus musculus with 35 samples.

Results

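Shared H3K4me3 peaks without UTX are regions that carried trimethylated histone H3 lysine 4 in both wild-type and Utx-deficient mouse cranial neural crest and lay outside the mapped binding sites of UTX. They were taken from the wild-type list of broad H3K4me3 peaks on chromosomes 1 to 19 (mm9). A region had to be under 4000 bp wide, to overlap a female knockout H3K4me3 peak by at least 1 bp, and to overlap no UTX peak and no wild-type H3K27me3 peak. Of 50795 wild-type regions on these chromosomes (51701 on all chromosomes), 47966 were narrow enough, 32835 of those overlapped a female knockout peak, 21962 of those lacked H3K27me3 and 13981 of those also lacked UTX. These 13981 regions are the members described here. The choice used the wild-type and female knockout H3K4me3 libraries, so values that compare these 2 groups at the members are a description and carry no test.

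The female knockout group was Utx fl/fl with Wnt1-Cre (3 H3K4me3, 3 H3K27me3 and 2 RNA libraries) and the male knockout group was Utx fl/y with Wnt1-Cre (1 library per histone mark and 2 RNA libraries). The wild-type group was male with Wnt1-Cre (3 libraries per histone mark and 2 RNA libraries). All groups carried the Rosa-Tomato reporter and were sorted at E12.5 (embryonic day) for Tomato fluorescence and exclusion of DAPI, a dye that enters dead cells. Deletion is driven by the Wnt1 promoter, so it takes in neural crest and other cells with a history of Wnt1 expression and depends on recombination in each cell. Because the wild-type embryos were male, an effect of sex and an effect of genotype cannot be told apart in the female comparison. The labels do not say that replicates are separate embryos, so p-values measure the spread between these samples only. The UTX map came from a single library of O9-1, a cranial neural crest line kept in culture, derived at embryonic day 8.5 and fixed with formaldehyde, whereas the histone marks were read in unfixed cells; both used micrococcal nuclease. A region without a UTX peak is therefore one without a call in that line and stage.

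H3K4me3 marks promoters of active and poised genes, and weaker H3K4me3 is also found at enhancers. It is laid down by SET1 and MLL complexes built around the WDR5, RBBP5, ASH2L and DPY30 core, and it is removed by the KDM5 demethylases. UTX, the product of Kdm6a, removes methyl groups from H3 lysine 27 and also sits in the MLL3 and MLL4 complexes, which act mainly on enhancers. No gene was assigned to a region here.

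The libraries held 22221560 to 39366680 H3K4me3 counts and 15070248 to 18248985 H3K27me3 counts in autosomal regions, and 14513993 to 16350892 RNA counts on genes. Pairs of replicate H3K4me3 libraries differed by more than sampling noise, with a chi-square per degree of freedom of 1.10 to 1.44. Kdm6a RNA stood at 52.9 and 62.4 CPM (counts scaled to a common library size) in female knockouts, at 40.5 and 31.9 CPM in male knockouts and at 45.6 and 51.5 CPM in wild type. Neither knockout passed the test against wild type (by edgeR, 0.25 on the log2 scale in females with SE 0.159 and adjusted p = 0.391, and -0.42 in males with SE 0.161 and adjusted p = 0.198). A count taken over all exons cannot check the loss of some of them. The 9 crest markers, among them Prrx1, Twist1, Pdgfra and Sox10, summed to 1695 and 1711 CPM in female knockouts, 1904 and 1760 CPM in male knockouts and 1579 and 1509 CPM in wild type. Dlx2, another of the 9, had 22.8 and 18.9 CPM in female knockouts, 23.7 and 16.9 CPM in male knockouts and 35.0 and 32.7 CPM in wild type. The 3 neuron markers Elavl3, Tubb3 and Stmn2 summed to 1108 and 1113 CPM in female knockouts, 755 and 1306 CPM in male knockouts and 1351 and 1346 CPM in wild type, and their part in the results below was not tested. Stmn2 did not follow the sum in females, at 303 and 303 CPM in female knockouts, 205 and 358 CPM in male knockouts and 279 and 289 CPM in wild type. Fewer neurons and less RNA per neuron cannot be told apart in such bulk samples. Summed markers of endothelium (5.32 to 9.73 CPM), epithelium (5.70 to 8.14 CPM), muscle (0.129 to 1.08 CPM) and blood (0.19 to 0.576 CPM) were low in all 6 libraries, and Hba-a1 was listed at 0.

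The members were mostly narrow regions of low H3K4me3. Their median width was 717 bp (quartiles 465 and 1087 bp, range 141 to 3978 bp), against 2174 bp for the 7981 UTX-bound regions that met the same other criteria and 819 bp over all wild-type regions. By width, 3958 were under 500 bp, 5952 were 500 bp or wider but under 1000 bp, 3393 were 1000 bp or wider but under 2000 bp and 678 were 2000 bp or wider. The level of a region is given as TMM-normalised CPM per kb of its width. Averaged over all 7 libraries, the median member stood at 2.36 CPM per kb, the median UTX-bound region at 10.9 CPM per kb and the median wild-type region at 2.40 CPM per kb. Only 946 members (6.77%) reached 8 CPM per kb, against 5562 (69.7%) of the UTX-bound regions. At the low end, 4605 members (32.9%) were under 2 CPM per kb and 6457 (46.2%) between 2 and 4. The members, 13981 of 50795 wild-type regions, held 8.34% ± 0.222 of the counts in wild-type regions in female knockouts (SD, n = 3), 8.13% in the male knockout library and 9.96% ± 0.291 in wild type (SD, n = 3). Precision at single members is limited by depth, since the median member held 49 to 75 counts per library.

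**Figure D1:**
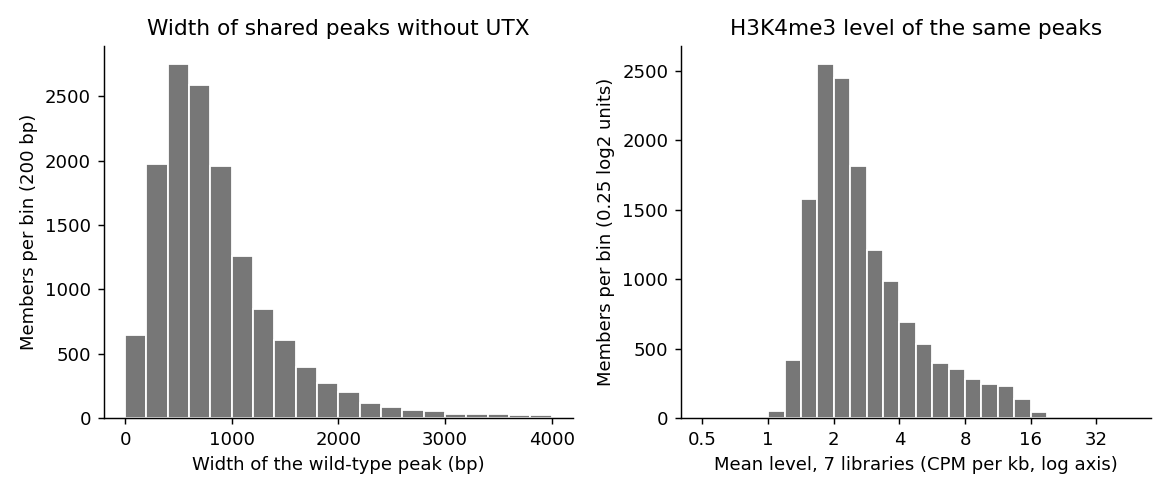
Histograms of the members by width in bp (left, bins of 200 bp) and by mean level over the 7 H3K4me3 libraries in CPM per kb on a log axis (right, bins of 0.25 log2 units). Most members lie near the median width of 717 bp and the median level of 2.36 CPM per kb, with a tail of wider and stronger regions.

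Most members matched a single peak of the female knockout list. Of the 13981, 13862 overlapped 1 such peak, 117 overlapped 2 and 2 overlapped 3. The overlapping female knockout peak was narrower, with a median of 577 bp, and 9113 members (65.2%) were wider than it. It covered a median of 83.5% of the member (quartiles 58.8% and 97.7%). The authors' fold enrichment of the members in the wild-type list had a median of 3.09 (quartiles 1.99 and 4.33) and their −log10 q a median of 6.42.

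The members were spread over the genome, and that they lay apart from UTX peaks follows from the choice. The nearest UTX peak lay at a median of 42736 bp (quartiles 13471 and 131270 bp), 215 members had one within 1 kb and 1514 within 5 kb. The median was 49321 bp for 12807 regions called in wild type only. Those met the same criteria, except that they overlapped no female knockout H3K4me3 peak. The nearest wild-type H3K27me3 peak lay at a median of 44653 bp, against 42086 bp for UTX-bound regions. The next wild-type H3K4me3 peak lay at a median of 9435 bp, against 9081 bp for UTX-bound regions. Members made up 23.3% of wild-type regions on chromosome 19 (the lowest share) and 34.1% on chromosome 18, the highest. Of the members under 2000 bp, 473 lay within 2 kb of a wild-type H3K4me3 peak of at least 2000 bp, 1357 at 2 to 10 kb from one and 11473 farther away.

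The 3 members of highest wild-type level, in CPM per kb, did not all have a high enrichment in the authors' list. The region chr4:41812617-41813184 had 28.7, 29.2 and 24.4 CPM per kb in female knockouts, 26.3 in the male knockout and 27.4, 24.1 and 25.6 in wild type. The region chr7:7123972-7125142 had 21.6, 19.8 and 20.2 CPM per kb in female knockouts, 20.8 in the male knockout and 20.5, 21.1 and 21.4 in wild type. The region chr2:105743808-105745997 had 20.2, 18.7 and 19.4 CPM per kb in female knockouts, 21.1 in the male knockout and 19.6, 18.9 and 18.3 in wild type. In all 3, the female knockout libraries overlapped the wild-type ones. The authors' fold enrichment at these 3 was 2.30, 4.01 and 1.96, above the members' median of 3.09 at the chromosome 7 region and below it at the others. Their nearest UTX peaks lay 104985, 125646 and 96948 bp away.

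At the median wild-type level, a member held few reads per library. The region chr8:8951308-8951565 had 9, 16 and 16 counts in female knockouts, 16 in the male knockout and 26, 13 and 27 in wild type. The region chr4:124323727-124324290 had 31, 29 and 38 counts in female knockouts, 43 in the male knockout and 47, 40 and 53 in wild type. The region chr3:96355146-96355730 had 52, 47 and 58 counts in female knockouts, 41 in the male knockout and 51, 41 and 53 in wild type. After normalisation the female knockout libraries lay below all wild-type libraries in the first 2 and overlapped them in the third.

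The width limit cut through regions of mixed level. The widest members, chr4:14546198-14550175, chr15:77128420-77132395 and chr13:49639331-49643298, were 3978, 3976 and 3968 bp wide. Their mean levels were 2.96 ± 0.162, 1.62 ± 0.198 and 2.14 ± 0.0702 CPM per kb in female knockouts, 2.07, 1.85 and 1.19 in the male knockout, and 4.01 ± 0.211, 2.20 ± 0.147 and 4.11 ± 0.243 in wild type (SD, n = 3). Just outside the limit lay chr14:55542724-55546735, chr16:77235864-77239889 and chr3:107124526-107128616, at 4012, 4026 and 4091 bp. Their mean levels were 9.96 ± 0.371, 3.76 ± 0.0813 and 3.40 ± 0.187 CPM per kb in female knockouts, 9.66, 4.97 and 2.76 in the male knockout, and 9.77 ± 0.165, 4.87 ± 0.294 and 2.44 ± 0.101 in wild type.

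The median level of the members was lower in both knockouts than in wild type. It was 2.00, 2.14 and 2.18 CPM per kb in the female knockout libraries, 2.07 in the male knockout library and 2.64, 2.90 and 2.82 in the wild-type libraries. All 4 knockout libraries lay below all 3 wild-type libraries. The group means were 2.11 ± 0.0905 in female knockouts and 2.79 ± 0.133 in wild type (SD, n = 3). The same order held over all wild-type regions, so it is not particular to the members. Their medians were 2.06, 2.20 and 2.24 CPM per kb in female knockouts, 2.24 in the male knockout and 2.73, 2.98 and 2.91 in wild type. UTX-bound regions ran the other way under this TMM scaling, with medians of 11.8, 11.3 and 11.2 CPM per kb in female knockouts, 11.6 in the male knockout and 10.4, 9.97 and 10.0 in wild type. Regions called in wild type only had medians of 0.906, 1.01 and 1.05 CPM per kb in female knockouts, 0.952 in the male knockout and 1.81, 2.09 and 1.99 in wild type. The choice of those regions fixes this gap in the female comparison. It used the same wild-type libraries as the male comparison, so nothing is read from the gap there either.

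**Figure D2:**
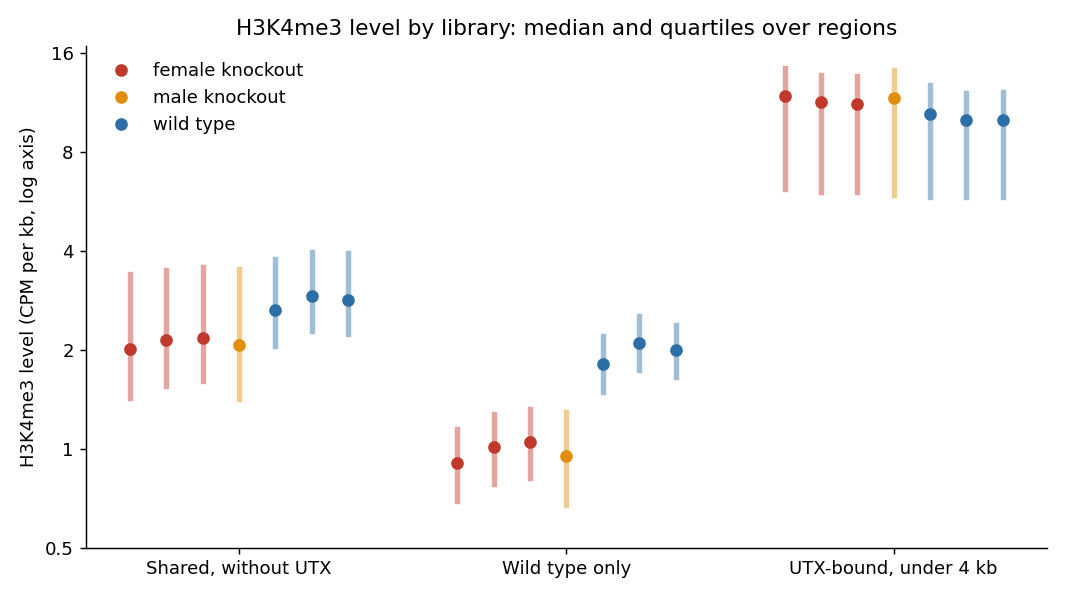
H3K4me3 level (CPM per kb, log axis) in each library, with female knockout, male knockout and wild-type libraries from left to right in each set of regions. Dots are medians over regions and bars run between the quartiles. At shared peaks without UTX the knockout medians (2.00 to 2.18) lie below the wild-type medians (2.64 to 2.90), while at UTX-bound peaks they lie above them. Over all wild-type regions, not drawn, the knockout medians (2.06 to 2.24) also lie below the wild-type medians (2.73 to 2.98).

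Set region by region against wild type, most members that passed the threshold were lower in the female knockout. With edgeR's quasi-likelihood test on counts, 13970 members were tested, 859 were higher and 6466 lower at an adjusted p under 0.05. Over all 88217 wild-type and female knockout entries tested, 57.4% were called, 24.8% higher and 32.5% lower. Because the members were chosen from peaks of these same libraries, nothing is read from their count against that background. The members' median log2 fold change was -0.36 (quartiles -0.63 and -0.04), that of all wild-type regions -0.30 and that of all entries -0.08. All 3 female knockout libraries lay below all 3 wild-type libraries at 6623 members and above them at 1073. These counts were not taken over all regions, so nothing is read from them. Beyond 2-fold lay 57 members higher and 484 lower, against 92 and 7096 of the 50065 wild-type regions tested.

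The male knockout library took no part in the choice, although the wild-type libraries it was set against did. All 13981 members were tested, and 1009 rose and 5305 fell (edgeR, adjusted p under 0.05, with 1 library assumed to vary like the other groups). Over all 89143 entries 49.3% were called, 23.3% higher and 26% lower. Of the members 37.9% fell, and of all wild-type regions 32.1%. All members are wild-type peaks while the entries also hold female knockout peaks, so nothing is read from the members' share against that of all entries. Fitted on wild-type entries alone, the members' median lay -0.13 from that of all entries, against -0.30 in the fit of both kinds of entry. The median log2 fold change was -0.38 (quartiles -0.80 and 0.01) over members, -0.26 over all wild-type regions and -0.08 over all entries. The male knockout library lay below all 3 wild-type libraries at 8669 members and above them at 2432. Nothing is read from these counts, which were not taken over all regions. Beyond 2-fold lay 166 members higher and 2205 lower, against 425 and 10446 of the 50792 wild-type regions tested. Both knockouts were set against the same wild-type libraries. Scaling by library totals in place of TMM moved the median of all entries by -0.11 in the female and by -0.16 in the male comparison. DESeq2 called fewer members, 743 higher and 3712 lower in the female knockout and 680 higher and 2512 lower in the male knockout. These were 31.9% of members in the female and 22.8% in the male comparison, against 43.0% and 31.0% of all entries. Over all entries DESeq2 called more higher than lower, 22316 against 16037 in the female and 18381 against 9288 in the male knockout. Counting the overlapping female knockout peak in place of the wild-type peak gave median log2 fold changes of -0.25 in the female and -0.33 in the male knockout.

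The log2 fold change was lowest at the members of lowest level, taken as the mean over all 7 libraries. The wild-type libraries took part in the peak calls, in this level and in both comparisons. The order by level and the calls within each level are therefore a description. In the female knockout, the median log2 fold change was -0.58 for the 4605 members under 2 CPM per kb, -0.38 for those from 2 to 4, 0.01 for the 1973 from 4 to 8 and 0.08 for the 946 of 8 or more. In the male knockout it was -0.69, -0.39, -0.02 and 0.10 in the same order of levels. Of the weakest members, 35 rose and 2423 fell in the male knockout, whereas of the strongest 302 rose and 64 fell. Among the weakest, 52.6% of members fell in the male knockout, against 53.7% of all wild-type regions at that level, so the share is that of the background. Among the strongest, 31.9% of members rose, against 58.8% of all wild-type regions at that level. With libraries scaled by their totals, the strongest members stood at -0.04 in the female and -0.05 in the male knockout, and the members from 4 to 8 CPM per kb at -0.11 in the female and -0.17 in the male knockout. Against the TMM values, this turned the direction of the strongest members in both knockouts and of those from 4 to 8 CPM per kb in the female knockout. In the male knockout the members from 4 to 8 CPM per kb turned to 0.05 with RLE size factors. The medians of members under 4 CPM per kb were below 0 under every scaling tried.

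UTX-bound regions were compared in the same groups of level. Under 2 CPM per kb, the median log2 fold change in the female knockout was -0.58 at members and -0.59 at 705 UTX-bound regions. From 2 to 4 CPM per kb it was -0.38 at members and -0.39 at 1002 UTX-bound regions. From 4 to 8 it was 0.01 at members and 0.06 at 712 UTX-bound regions, and at 8 or more it was 0.08 at members and 0.16 at 5562 UTX-bound regions. In the male knockout the pairs were -0.69 and -0.67, -0.39 and -0.40, -0.02 and 0.06, and 0.10 and 0.19, with members before UTX-bound regions. Of the members, 32.9% lay under 2 and 46.2% at 2 to 4 CPM per kb, against 8.83% and 12.6% of the UTX-bound regions. Within a group the levels still differed, with medians of 5.22 at members and 6.36 at UTX-bound regions from 4 to 8. At 8 or more they were 10.9 and 12.4. In narrower bins the female medians were -0.02 at members and -0.04 at UTX-bound regions from 4 to 6, and 0.08 and 0.16 from 10 to 15. The male medians were -0.06 and -0.06, then 0.11 and 0.20, in the same bins. These medians have no test of their own.

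**Figure D3:**
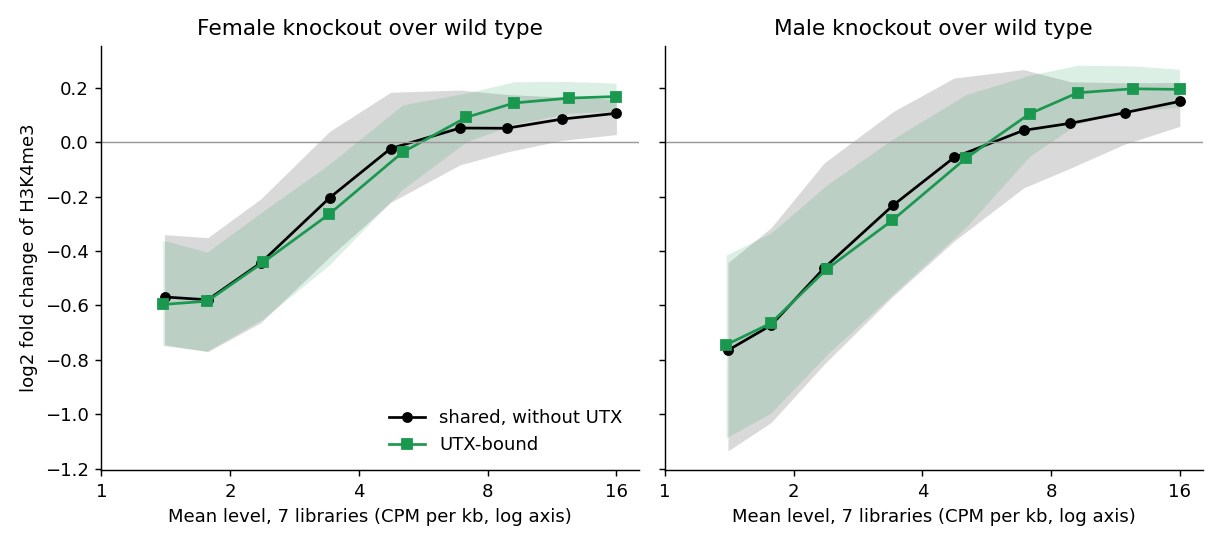
Median log2 fold change of H3K4me3 (y axis) in bins of mean level over the 7 libraries (x axis, CPM per kb, log axis) for the female knockout (left) and male knockout (right) against wild type, with shading between the quartiles. Circles are shared peaks without UTX and squares are UTX-bound peaks. In the female knockout, the medians at shared and UTX-bound peaks are -0.58 and -0.58 in the bin from 1.5 to 2 CPM per kb. They are 0.08 and 0.16 in the bin from 10 to 15.

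Medians varied less between widths and neighbourhoods than between levels. In the male knockout the median log2 fold change was -0.29 for members under 500 bp, -0.46 from 500 bp to under 1000 bp, -0.39 from 1000 bp to under 2000 bp and -0.17 for 2000 bp or wider. In the female knockout it was -0.24, -0.44, -0.39 and -0.20 in the same order of widths. Members under 2000 bp that lay within 2 kb of a peak of at least 2000 bp had a median of -0.14 in the female and -0.30 in the male knockout. Those over 10 kb from such a peak had -0.38 in the female and -0.41 in the male knockout. By chromosome, members' medians ran from -0.42 to -0.22 in the female and from -0.49 to -0.17 in the male knockout, with chromosome 7 the least lowered in both.

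A few members stood far above wild type in both knockouts. The region chr2:161337033-161337322, of 290 bp, had 25.5, 27.2 and 25.6 CPM per kb in female knockouts, 31.3 in the male knockout and 2.40, 3.65 and 2.16 in wild type. Its counts were 275, 265 and 248 in female knockouts, 328 in the male knockout and 21, 25 and 23 in wild type. The log2 fold change was 3.29 (SE 0.146) in the female knockout and 3.57 (SE 0.170) in the male knockout. No UTX peak was called within 401280 bp of it.

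The region chr19:5406029-5407276 had 12.4, 13 and 12.1 CPM per kb in female knockouts, 9.31 in the male knockout and 2.15, 1.86 and 1.79 in wild type. The fitted log2 fold change was 2.68 (SE 0.0915) in the female knockout and 2.27 (SE 0.125) in the male knockout. The region chr14:50681145-50682591 had 16.5, 16.4 and 14.6 CPM per kb in female knockouts, 16.2 in the male knockout and 3.25, 3.22 and 3.51 in wild type. Its log2 fold change was 2.23 (SE 0.0722) in the female knockout and 2.28 (SE 0.0935) in the male knockout. Both regions were raised in every knockout library over every wild-type library. The choice fixed this for the female libraries at both and for the male library at the second. The second had the lowest authors' −log10 q of the named members in the wild-type list, 1.30.

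Other members were lower than wild type in both knockouts, and 3 of those with the smallest p are given here. The region chr7:108541711-108544740 had 1.54, 1.67 and 2.11 CPM per kb in female knockouts, 1.37 in the male knockout and 5.36, 5.18 and 5.18 in wild type. The fitted log2 fold change was -1.58 (SE 0.0761) in the female knockout and -1.94 (SE 0.117) in the male knockout. The region chr3:95302479-95305015 had 3.60, 3.26 and 3.70 CPM per kb in female knockouts, 2.98 in the male knockout and 8.94, 9.17 and 8.55 in wild type. Its log2 fold change was -1.34 (SE 0.0624) in the female knockout and -1.57 (SE 0.0965) in the male knockout. The region chr9:121846400-121848101 had 7.0, 6.94 and 7.0 CPM per kb in female knockouts, 6.60 in the male knockout and 13.9, 12.6 and 12.7 in wild type. The fitted log2 fold change was -0.91 (SE 0.0589) in the female knockout and -0.99 (SE 0.0882) in the male knockout. At all 3, the knockout libraries lay below every wild-type library. The choice fixed this for the female libraries, and for the male library at the chromosome 7 and chromosome 3 regions.

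Other members stood at different levels in the 2 knockouts. The region chr8:97517759-97521036 had 3.47, 3.26 and 3.24 CPM per kb in female knockouts, 10.2 in the male knockout and 2.68, 2.30 and 2.32 in wild type. Its log2 fold change was 0.44 (SE 0.0751) in the female knockout and 2.06 (SE 0.0801) in the male knockout. The region chr2:181501504-181504126 had 3.44, 2.92 and 3.10 CPM per kb in female knockouts, 9.20 in the male knockout and 2.10, 2.32 and 2.18 in wild type. The fitted log2 fold change was 0.52 (SE 0.0870) in the female knockout and 2.07 (SE 0.0906) in the male knockout. At both regions the single male knockout library stood above every other library, and the female knockout libraries above every wild-type library. The choice required the male library to lie above the wild-type ones.

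The wide region chr13:49639331-49643298 had 2.17, 2.06 and 2.19 CPM per kb in female knockouts, 1.19 in the male knockout and 3.84, 4.32 and 4.17 in wild type. It was lower in the male knockout (log2 fold change -1.79, SE 0.113) and stood at -0.95 (SE 0.0673) in the female knockout. The other wide member chr4:14546198-14550175 also fell in the male knockout, by edgeR at -0.96 (SE 0.0989, adjusted p = 6.54e-20), and stood at -0.45 (SE 0.0632) in the female knockout. At chr15:77128420-77132395 the male knockout stood at -0.26 (SE 0.113, edgeR adjusted p = 0.0470) against wild type, and the female knockout at -0.46 (SE 0.0841). There the overlapping female knockout peak went the other way, at 0.21 in the female and 0.18 in the male knockout, and leaving out wt2, wt3 or fko2 took the male value above the threshold (edgeR adjusted p 0.0513 to 0.166). So did RLE size factors (0.151), wild-type entries alone (0.137) and the replicate block (0.342) in edgeR, and DESeq2 (adjusted p = 0.393).

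**Figure D4:**
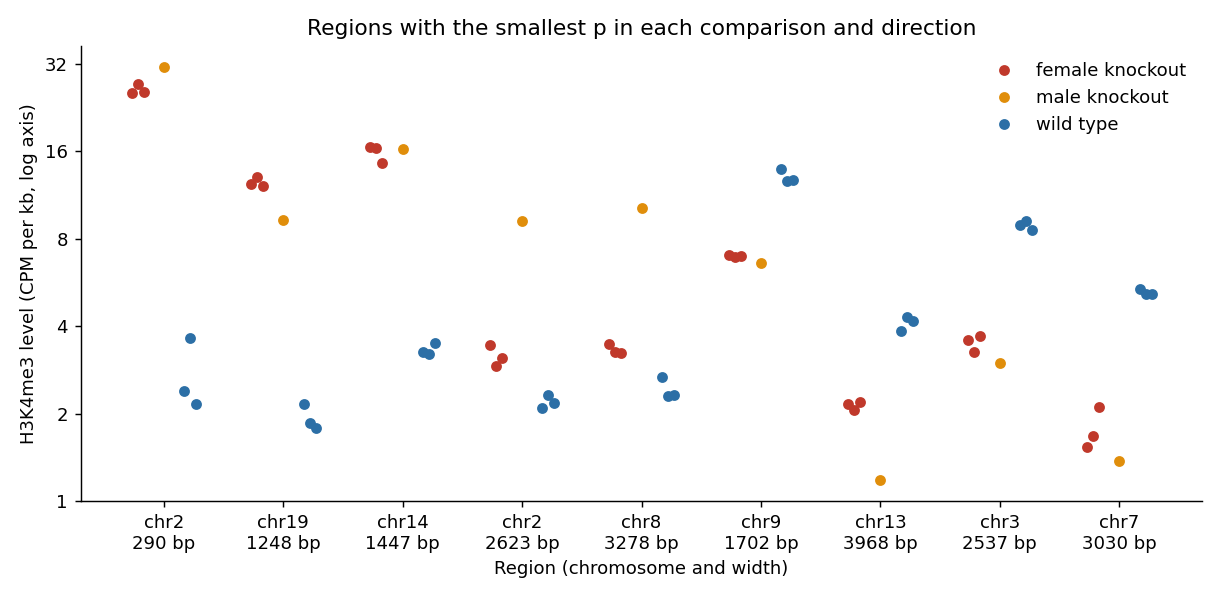
H3K4me3 level (CPM per kb, log axis) in each library at the 9 members with the smallest p in each comparison and direction, labelled by chromosome and width and ordered by the female knockout's fold change. They were taken among members whose libraries did not overlap between the groups compared, so that gap was fixed by the choice. Dots are libraries, with female knockout left, male knockout in the middle and wild type right; the chr2 region of 290 bp lies at 25.5 to 31.3 in knockouts against 2.16 to 3.65 in wild type.

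The knockouts were also set against each other. Members had to carry a female knockout peak, so the female libraries took part in the choice and the counts are a description. In the fit of all 7 libraries, 831 members were higher and 751 lower in the female than in the male knockout (edgeR, adjusted p under 0.05). Over all 89143 entries, 11.9% were called, 4.66% higher and 7.25% lower, and nothing is read from the members' count against that. The members' median log2 fold change was 0.07 and that of all entries 0.00463. With 1 male library, a difference between sexes, embryos or libraries cannot be told apart.

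Runs of consecutive members called in the same direction were counted along each chromosome. In the female comparison, 798 runs of at least 3 consecutive members were all called lower and held 3449 members, and 18 runs with 64 members were all called higher. In the male comparison, 555 runs with 2173 members fell and 16 runs with 57 members rose. With 46.3% of members called lower in the female and 37.9% in the male comparison, such runs arise also among unrelated regions, and no test was made. The longest held 20 members over chr17:59501418-63375281, with log2 fold changes from -1.18 to -0.30 and a median of -0.69 in the female and -0.84 in the male knockout. The 5 members over chr12:22990391-25178588 were called higher in both, with medians of 0.85 in the female and 0.96 in the male knockout. The 5 members over chr14:4958678-7437711 rose in the male knockout with a median of 1.03 and had a median of 0.41 in the female knockout.

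A minority of members overlapped H3K27me3 called in the female knockout. The choice excluded wild-type H3K27me3 peaks but not those of the female knockout, which touched 660 members (4.72%), against 148 of the UTX-bound regions (1.85%) and 256 of the regions called in wild type only (2.00%). Most of these were weak calls, with a median −log10 q of 1.54 against 2.31 over the whole female knockout H3K27me3 list, and only 29 members remained with peaks of −log10 q of at least 5. They lay close to wild-type H3K27me3, at a median of 7638 bp against 46822 bp for the other members. The 659 H3K27me3 peaks had median levels of 1.86, 1.92 and 1.97 CPM in female knockouts, 1.61 CPM in the male knockout and 1.43, 1.5 and 1.49 CPM in wild type. These peaks were chosen for a call in the female knockout at regions with none in wild type, so the order of the female knockout and wild-type medians is fixed by the choice (median log2 fold change 0.36 in the female knockout), and the wild-type values enter the male comparison too.

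In the male knockout, 27 of the 658 tested peaks rose and 1 fell (edgeR, adjusted p under 0.05), against 4.28% higher and 2.66% lower over all 34078 H3K27me3 entries. Their median log2 fold change was 0.14, against -0.01 over all entries and 0.02 over all 16700 female knockout entries. The share that rose was near the background. The 4 members with the highest −log10 q of such a peak each lay within 319 bp of a wild-type H3K27me3 peak. The H3K27me3 peak chr17:48230696-48237811 had 170, 157 and 156 CPM in female knockouts, 164 CPM in the male knockout and 153, 142 and 148 CPM in wild type, and a wild-type peak lay 77 bp from the member chr17:48237735-48238296. The peaks at the members chr10:86966748-86966916, chr9:98879779-98880694 and chr8:26154068-26154736 likewise had wild-type H3K27me3 at 80, 319 and 78 bp. At the last of these the H3K27me3 peak had 140, 140 and 133 CPM in female knockouts, 134 CPM in the male knockout and 133, 128 and 128 CPM in wild type. The mark was thus counted over that peak in every library. The peak, chr8:26145814-26154093, is 8280 bp wide and reaches only the edge of the member, so these values are not those of the member itself.

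The RNA of the machinery that writes, erases and reads H3K4 methylation was read as a list of 31 genes. Mll2 was left out, since that symbol can stand for Kmt2b or Kmt2d. The erasers include Kdm1a and Kdm2b, which were listed for H3K4 methylation in general and not for H3K4me3. None passed at an adjusted p under 0.05 in either comparison with edgeR or DESeq2, against 1.12% of 14521 genes called in the female knockout (0.303% higher, 0.82% lower) and 2.34% in the male knockout (0.379% higher, 1.96% lower). At an unadjusted p under 0.05, edgeR found 3 of 31 in each comparison, and DESeq2 found 2 in the female and 4 in the male knockout. The share of all genes at that unadjusted threshold was not taken, so nothing is read from these counts. The list's median log2 fold change was 0.02 in the female and -0.04 in the male knockout, against 0.01 over all genes in both.

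The libraries fell into 2 sets by the share of reads on no annotated gene, 21.5% to 22.1% in fko1, mko2 and wt1 and 27.6% to 27.9% in fko2, mko1 and wt2. With that set as a term of the edgeR fit, 8 of the 31 passed in the female (3 higher, 5 lower, against 23.3% of all genes) and 9 in the male knockout (1 higher, 8 lower, against 24.7%). In the female knockout these were Kdm5c, Dpy30 and Men1 (higher) and Mll1, Mll3, Kdm5a, Wbp7 and Bptf (lower), with edgeR adjusted p from 0.00509 for Mll1 to 0.0468 for Men1. In the male knockout they were Dpy30 (higher) and Mll1, Mll3, Setd1b, Wbp7, Setd1a, Bptf, Hcfc1 and Kdm5a (lower), with edgeR adjusted p from 0.00202 for Mll1 to 0.0383 for Dpy30. The values per gene that follow are from the fit without that term.

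Among writers, Setd1a, Mll1 and Wbp7 had the smallest p in the male knockout. Setd1a, a SET1 methyltransferase, had 88.8 and 92.4 CPM in female knockouts, 90.0 and 74.3 CPM in male knockouts and 99.5 and 120 CPM in wild type, which is -0.42 on the log2 scale in the male knockout (SE 0.150, edgeR adjusted p = 0.180). Mll1 (Kmt2a), an MLL methyltransferase, had 151 and 209 CPM in female knockouts, 194 and 138 CPM in male knockouts and 216 and 291 CPM in wild type, which is -0.61 on the log2 scale in the male knockout (SE 0.227, edgeR adjusted p = 0.191). Wbp7 (Kmt2b), its close relative, had 115 and 130 CPM in female knockouts, 128 and 105 CPM in male knockouts and 135 and 169 CPM in wild type, at -0.38 in the male knockout (SE 0.162, edgeR adjusted p = 0.237). At these 3 genes every knockout library lay below both wild-type libraries. That did not hold for Setd1b (86.4 and 114 CPM in female knockouts, 100.5 and 78.4 CPM in male knockouts, 102 and 129 CPM in wild type) or for Mll3 (92.8 and 135 CPM in female knockouts, 126 and 93.1 CPM in male knockouts, 133 and 166 CPM in wild type), which are methyltransferases of the same families. Men1, which encodes the menin subunit of MLL complexes, stood at 110 and 92.3 CPM in female knockouts, 93.2 and 86.7 CPM in male knockouts and 84.3 and 78.1 CPM in wild type (0.32 in the female knockout, SE 0.137, edgeR adjusted p = 0.250).

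Among erasers, Kdm5c, an X-linked H3K4 demethylase known to escape X inactivation, had 215 and 222 CPM in female knockouts, 155 and 133 CPM in male knockouts and 155 and 159 CPM in wild type. Its log2 fold change was 0.48 in the female (SE 0.133, edgeR adjusted p = 0.131) and -0.13 in the male knockout (edgeR adjusted p = 0.585). Both female libraries stood above all 4 male libraries. Kdm5a, another KDM5 demethylase, had 98.3 and 109 CPM in female knockouts, 109 and 104 CPM in male knockouts and 121 and 135 CPM in wild type, at -0.30 in the female knockout (SE 0.130, edgeR adjusted p = 0.250). The 12 readers on the list, such as Taf3 and Bptf, whose PHD fingers bind H3K4me3, had log2 fold changes from -0.26 to 0.25 in the female and from -0.31 to 0.27 in the male knockout, and none passed in the fit without the library set.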

How the data were processed

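H3K4me3 and H3K27me3 were read by native ChIP-seq, UTX by fixed ChIP-seq and RNA by RNA-seq. The submitters' processing notes name the build mm9 and, in no stated order, MACS2, HTSeq, Bowtie2, TopHat2, Trimmomatic, bedtools and SAMtools. Versions are not given in the sources used here. The deposited tables hold raw read counts per peak entry or gene, made by the authors, with wild-type and female knockout peaks as separate entries. The deposited peak lists give the authors' −log10 q values and their fold enrichment, with 1 list per group and mark. Peaks sharing at least 1 bp were taken as overlapping.

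Counts were tested with edgeR 4.0.16 (TMM, quasi-likelihood, R 4.3.3) over all entries on chromosomes 1 to 19 that passed its filter on low counts, with 6 libraries for the female and 7 for the male comparison. Adjusted p-values are Benjamini-Hochberg values over all entries tested. RNA was fitted with all 6 libraries. Same-numbered H3K4me3 replicates did not deviate together (correlations 0.0175 to 0.0995), so the numbers were not taken as pairs. Alternatives were DESeq2 1.42.0, other scalings, filters, definitions of the members and leaving out each replicate. The scripts were tested on simulated data. Members and lists were chosen with earlier results of these data known. Regions named singly were those of highest and of median wild-type level, the widest and those just outside the width limit. Others had the smallest p in each comparison and direction, among members whose libraries did not overlap between the groups compared. A last set overlapped the strongest female knockout H3K27me3 peaks, some only at an edge. No genome of the files' build was used, so no sequence or gene is given for a region.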

Additional observations from a re-analysis of the deposited data

Results flagged for a closer look

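In the fit of all 7 H3K4me3 libraries, the female against the male knockout passed edgeR's threshold at 1582 members, near the 11.9% over all entries. Members had to carry a female knockout peak, so the choice used the female libraries and these differences are given as a description, with no p. Among the members named above, 5 were past the threshold. The region chr8:97517759-97521036 had a log2 fold change of -1.61, female over male knockout (SE 0.0750). At chr2:181501504-181504126 it was -1.54 (SE 0.0837). At chr13:49639331-49643298 it was 0.85 (SE 0.123). At chr4:14546198-14550175 it was 0.52 (SE 0.102). At chr19:5406029-5407276 it was 0.43 (SE 0.0907). The male knockout had 1 library, so sex and library cannot be told apart in these differences.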

How the results depend on the processing

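Members numbered 9000 with female knockout peaks of −log10 q of at least 5, and 8044 with such wild-type peaks. With DESeq2, 4455 members were called in the female (3712 lower) and 3192 in the male knockout (2512 lower). That is 31.9% and 22.8% of members, against 43.0% and 31.0% of all entries. UTX peaks of −log10 q of at least 5 let more regions in, 20794 in all. Of these, 11999 were called in the female (4474 higher, median log2 fold change -0.17) and 10327 in the male knockout (4136 higher, median -0.15). The called share was that of the background, 57.7% against 57.4% of all entries in the female and 49.7% against 49.3% in the male comparison. With library totals, 398 were higher in the female (median -0.47) and 500 in the male knockout (median -0.54), and the wild-type level was 2.94 CPM per kb. With TMM over UTX-bound peaks, 388 were higher in the female (median -0.47) and 538 in the male knockout (median -0.52). These scalings, chosen after seeing the data, moved the median of all entries by -0.11 in the female and by -0.16 (library totals) or -0.14 (UTX-bound) in the male comparison. The members' median relative to it was -0.27 in the female and -0.30 in the male comparison. A change of scaling shifts all entries nearly alike, so this difference could hardly move and nothing is read from its staying. Fitted on wild-type entries alone, 1457 were higher in the female knockout and the members lay -0.05 (female) and -0.13 (male) from the median of all entries. Over female knockout intervals the female median was -0.25, and chr15:77128420-77132395 reversed to 0.21 (female) and 0.18 (male). Leaving out 1 replicate gave 5871 to 7109 calls in the female and 5406 to 6450 in the male comparison, and the replicate block gave 7604 calls in the female and 5018 in the male comparison. Members with female knockout H3K27me3 numbered 338 with 50% of the peak covered and 29 with −log10 q of at least 5, and those that rose in the male knockout numbered 7 with DESeq2 and 17 with library totals. With a term for the 2 sets of RNA libraries, 8 (female) and 9 (male) of the 31 RNA genes passed. The cause of these shifts was not tested. Counts near 50 per member limit single calls.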
